A study of Oscheius tipulae with 48 samples.

Results

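The transcript pool of L1 larvae of the free-living nematode Oscheius tipulae was compared with that of embryos of 64 to 200 cells. The comparison takes 7 of the 48 RNA-seq libraries of the series, chosen by the stage in their labels: 3 libraries of L1 larvae, 2 of 64-128 cell embryos, 1 of 100-150 cell embryos and 1 of 150-200 cell embryos. All 7 are of strain CEW1, with no other genotype or treatment named. Embryos were freed from egg-carrying worms with bleach and aged in a salt medium at 25 °C. For the larvae, mixed embryos were kept in that medium without food until they had reached L1, and arrested larvae were then plated on bacteria. The labels do not say whether the L1 libraries were taken before or after plating, so stage, feeding and culture cannot be told apart here. Whole embryos and whole worms were extracted, so fewer cells of a type and less RNA per cell cannot be told apart either. Values were taken as RPKM, reads scaled by gene length and library size, which is inferred from the values since the table names no unit, for 14558 genes known by ID alone. The files used here pair no ID with a gene name, so the stage labels could not be checked against marker genes, and at most 2 higher and 2 lower IDs are named per comparison.

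As background, a nematode embryo first passes through a phase of cell division and gastrulation, in which maternally supplied transcripts give way to those of its own genome. It then stops dividing while muscle, gut, nerve and skin differentiate, the body elongates and a cuticle is secreted, and it hatches as an L1 larva. In Caenorhabditis elegans an L1 that hatches without food arrests until it feeds. The interval between 200-cell embryos and L1 therefore spans terminal differentiation, hatching and, in these cultures, a time without food. Oscheius tipulae also removes the ends of its chromosomes during early cleavage, before the stages compared here.

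Libraries stood apart on both sides. L1 replicate 1 differed from L1 replicates 2 and 3 by at least 1 on the log2(RPKM + 1) scale in 6451 and 5979 of 11513 genes, but from the 150-200 cell library in 4061. L1 replicates 2 and 3 differed from each other by that much in 2448 genes. On the embryo side, 3 of the 4 libraries carry replicate number 3 in their descriptions, and these were nearly alike across stages: the 64-128 and 150-200 cell libraries of that number differed by at least 1 in 20 genes. The 64-128 cell replicate 1 differed from them in 2597 to 2701 genes. It held 3323 genes at 0, against 845 to 1258 in the other embryos and 422 to 816 in L1. No read counts are given and the steps between low values did not yield 1 relative depth per library, so depth is unknown. The titles call the replicates biological without naming separate cultures, so p-values reflect how much these libraries vary, which may be partly technical.

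More genes were higher than lower in L1 on the deposited RPKM scale. That order rested on genes that entered the test through their L1 values alone, and it turned around after quantile normalization. Of 11513 genes tested, 3168 (27.5%) were higher and 1626 (14.1%) lower in L1, counting genes whose level changed by 1 or more on the log2(RPKM + 1) scale with a Benjamini-Hochberg adjusted p under 0.05 in limma. The median log2 change was 2.25 in the higher list, -1.67 in the lower list and 0.10 over all genes tested. Large changes were mostly increases: 363 higher and 55 lower genes changed by at least 4 on the log2 scale, and 313 and 61 did after quantile normalization. The split depended on the scaling between libraries. After quantile normalization, which moved the median of all genes from 0.10 to -0.13, 1773 genes were higher and 2007 lower, and 1708 and 1249 of the lists above kept their call while none was called the opposite way. The higher list held 1889 genes under 1 RPKM in every embryo library, which entered the test through their L1 values alone. The lower list held 38 genes under 1 RPKM in every L1 library, which entered through their embryo values alone. The excess of higher over lower genes therefore depends on genes seen on the larval side only. Genes with a median under 0.5 RPKM over all 48 libraries, taken as silent, had a median of 0.15 to 0.47 RPKM in L1 and of 0 to 0.10 RPKM in the embryos. With that level subtracted from each library, 2953 genes were higher and 1696 lower.

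The count rests on treating the embryo libraries of replicate number 3 as separate. With these 3 libraries averaged into 1 value, 763 genes were higher and 116 lower, all of them called in the same direction above. With 64-128 cell embryos alone the counts were 872 and 135. Without L1 replicate 2 or 3 the total fell from 4794 to 2932 or 3102, and without L1 replicate 1 it rose to 6795.

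**Figure D1:**
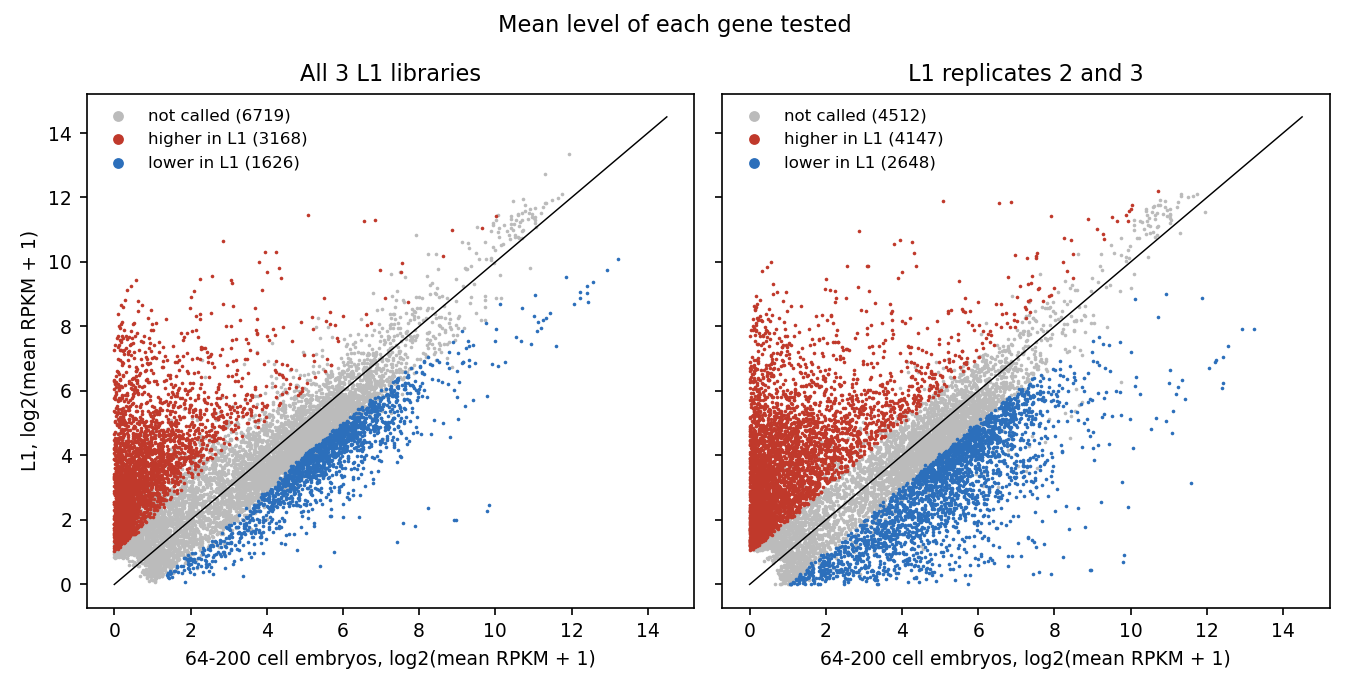
Mean level of each gene tested in the 4 libraries of 64-200 cell embryos (x axis) and in L1 (y axis), both as log2(mean RPKM + 1), with all 3 L1 libraries (left) and with L1 replicates 2 and 3 (right). Red points are the 3168 and 4147 genes called higher in L1, blue points the 1626 and 2648 called lower, grey points are not called and the line marks equal levels; many red points lie at the left edge, at or near 0 in embryos.

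The genes with the largest increases were close to 0 in embryos and abundant in larvae. Oti_g13622 was listed at 0 in both 64-128 cell libraries and in the 100-150 cell library and was at 0.70 RPKM in the 150-200 cell library. It was at 555.97, 371.18 and 246.16 RPKM in L1 replicates 1, 2 and 3. L1 replicate 1 was the highest of the larvae. The choice of named genes required that the groups do not overlap, which held for 46.3% of all genes tested. The log2 change was 8.35 ± 0.42 (SE), with an adjusted p of 4.8e-05 (limma, Benjamini-Hochberg). In stages outside the comparison this gene was at 1110 ± 13.0 RPKM in L2 (SD, n = 2) and between 0 and 3.38 RPKM in the 3 libraries of 32-64 cell embryos.

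Oti_g00534 was at 0 and 0.05 RPKM in the 64-128 cell libraries, at 0.43 RPKM at 100-150 cells and at 0 at 150-200 cells. In L1 it was at 221.57, 836.68 and 146.41 RPKM in replicates 1 to 3. The L1 libraries differed widely among themselves. The log2 change was 8.09 ± 0.58 (SE), with an adjusted p of 0.000158 (limma, Benjamini-Hochberg). Its level was 520 ± 222 RPKM in L2 and 7.13 ± 3.65 RPKM in dauer larvae (SD, n = 2 each), the arrested stress-resistant larval form.

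The genes with the largest decreases were abundant in embryos and nearly absent from larvae. Oti_g02274 was at 144.56 RPKM in 64-128 cell replicate 1 and at 1320.95, 946.04 and 1128.11 RPKM in the 64-128, 100-150 and 150-200 cell libraries of number 3. In L1 it was at 10.39, 1.12 and 0.09 RPKM, highest in replicate 1. The log2 change was -7.82 ± 0.93 (SE), with an adjusted p of 0.000663 (limma, Benjamini-Hochberg).

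Oti_g02273 followed it in every library, at 177.33, 1331.82, 979.70 and 1158.93 RPKM in the embryos and 11.92, 1.53 and 0.20 RPKM in L1. Its log2 change was -7.73 ± 0.89 (SE), with an adjusted p of 0.000611 (limma, Benjamini-Hochberg). The log2 ratio of the pair, on RPKM + 1, lay between 0.01 and 0.29 in the 7 libraries. Reads shared between near-identical or overlapping genes cannot be told apart in these values, so the pair may not be independent measurements. Before 64 cells Oti_g02274 varied with the replicate, from 10.1 to 1383 RPKM among the 3 libraries of 32-64 cells. It was listed at 0 in both L2 libraries. The p-values above take the embryo libraries of number 3 as separate. With these averaged into 1 value, the adjusted p was 0.0106 for Oti_g02274 and 0.00873 for Oti_g02273. It was 0.000126 for Oti_g13622 and 0.000565 for Oti_g00534 (limma, Benjamini-Hochberg).

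**Figure D2:**
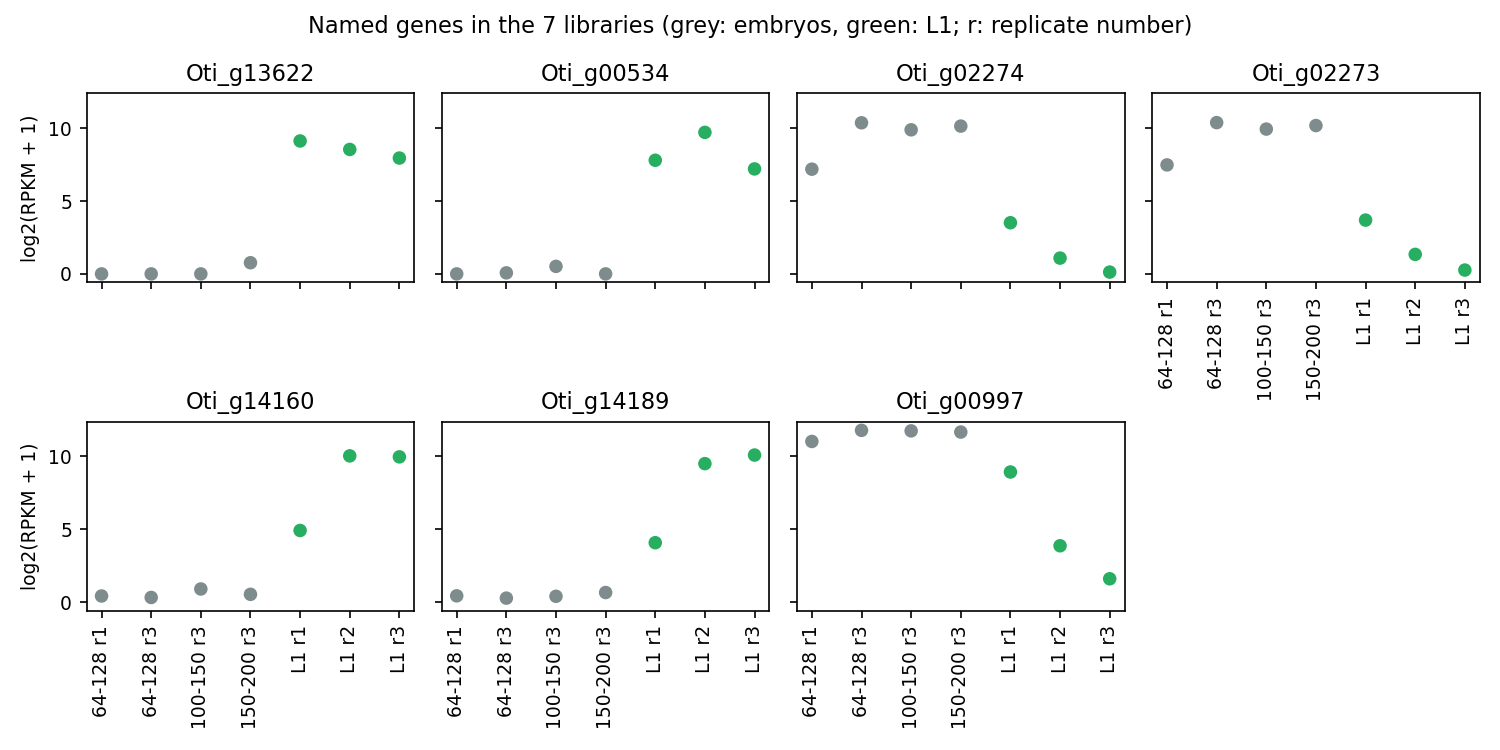
Level of each named gene, as log2(RPKM + 1), in the 4 embryo libraries (grey) and the 3 L1 libraries (green), with 64-128, 100-150 and 150-200 giving the cell number and r the replicate number. Oti_g13622 and Oti_g00534 are high in all 3 L1 libraries, whereas Oti_g14160, Oti_g14189 and Oti_g00997 place L1 replicate 1 between the embryos and the other larvae.

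With L1 replicate 1 left out, 4147 of 11307 genes (36.7%) were higher and 2648 (23.4%) lower in L1 under the same limma threshold. These lists contained 3062 of the 3168 higher genes (96.7%) and 1549 of the 1626 lower genes (95.3%) of the comparison with all L1 libraries, and no gene was called in opposite directions. In the other direction the shared genes made up 73.8% of the longer higher list and 58.5% of the longer lower list. After quantile normalization 2953 were higher and 3403 lower. With the 3 embryo libraries of number 3 averaged into 1 value, 3993 genes were higher and 1710 lower. In that fit the SE of Oti_g14160, described below, rose from 0.30 to 0.59. Its adjusted p nevertheless fell from 3.56e-06 to 1.33e-12 (limma, Benjamini-Hochberg). With so few values, p-values lean on a spread pooled over genes, so these counts cannot show that the calls hold against the grouping of the embryos. Genes under 1 RPKM in every embryo library and at 10 RPKM or more in every L1 library numbered 550, against 129 with L1 replicate 1 included. Genes under 1 RPKM in both larval libraries and at 10 RPKM or more in every embryo library numbered 48, against 0. Both kinds of genes entered the test through their higher side alone.

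Oti_g14160 led the higher genes of this comparison. It was at 0.34, 0.25, 0.87 and 0.45 RPKM in the 64-128 cell replicates 1 and 3, the 100-150 cell and the 150-200 cell library. L1 replicates 2 and 3 were at 1050.01 and 1002.02 RPKM, and replicate 1, which was not used, was at 29.22 RPKM. The log2 change was 9.46 ± 0.30 (SE), with an adjusted p of 3.56e-06 (limma, Benjamini-Hochberg), and replicate 1 also lay above all embryos. For replicates 2 and 3 the choice of named genes required no overlap with the embryos, a trait of 71.3% of all genes tested. Its level was 757 ± 121 RPKM in L2 and 1303 ± 7.64 RPKM in L3 (SD, n = 2 each).

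Oti_g14189 also placed L1 replicate 1 between the embryos and the other larvae. It was at 0.21 to 0.58 RPKM in the embryos, at 725.21 and 1092.02 RPKM in L1 replicates 2 and 3 and at 15.89 RPKM in replicate 1. Its log2 change was 9.36 ± 0.31 (SE), with an adjusted p of 3.56e-06 (limma, Benjamini-Hochberg).

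Oti_g00997 led the lower genes, at 2085.38, 3538.39, 3450.14 and 3260.87 RPKM in the 4 embryo libraries and at 13.61 and 2.04 RPKM in L1 replicates 2 and 3. L1 replicate 1 held 486.96 RPKM, below every embryo and far above the other larvae. The log2 change was -8.82 ± 0.62 (SE), with an adjusted p of 1.29e-05 (limma, Benjamini-Hochberg). The level of this gene was 233 ± 154 RPKM in 2-4 cell and 2313 ± 882 RPKM in 32-64 cell embryos (SD over 3 libraries each), and 0.67 and 4.42 RPKM in the L2 libraries. Oti_g02274 was the next of the lower genes, with a log2 change of -8.79 ± 0.86 (SE), with an adjusted p of 4.97e-05 (limma, Benjamini-Hochberg).

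L1 replicate 1 was left out because it was already known to lie nearer the embryos than the other larvae do, so its place in these longer lists is a description of how far and in which genes, and supports nothing. Each gene was given a place on the log2(RPKM + 1) scale, from 0 at the mean of the embryos to 1 at the mean of L1 replicates 2 and 3. The median place of L1 replicate 1 was 0.35 in the 4147 higher genes (quartiles 0.14 and 0.57) and 0.31 in the 2648 lower genes (quartiles 0.02 and 0.65). It lay on the larval side of the midpoint in 1318 higher genes (31.8%) and in 902 lower genes (34.1%). In 3411 and 1745 genes it lay between the means, and in 505 and 629 it lay on the far side of the embryo mean. On the linear RPKM scale the median place was 0.14 for the higher genes and 0.52 for the lower genes. The library thus lay between the 2 means in most genes, and its place differed from gene to gene. A place between the means can still lie within the range of the embryo libraries or of the other larvae.

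**Figure D3:**
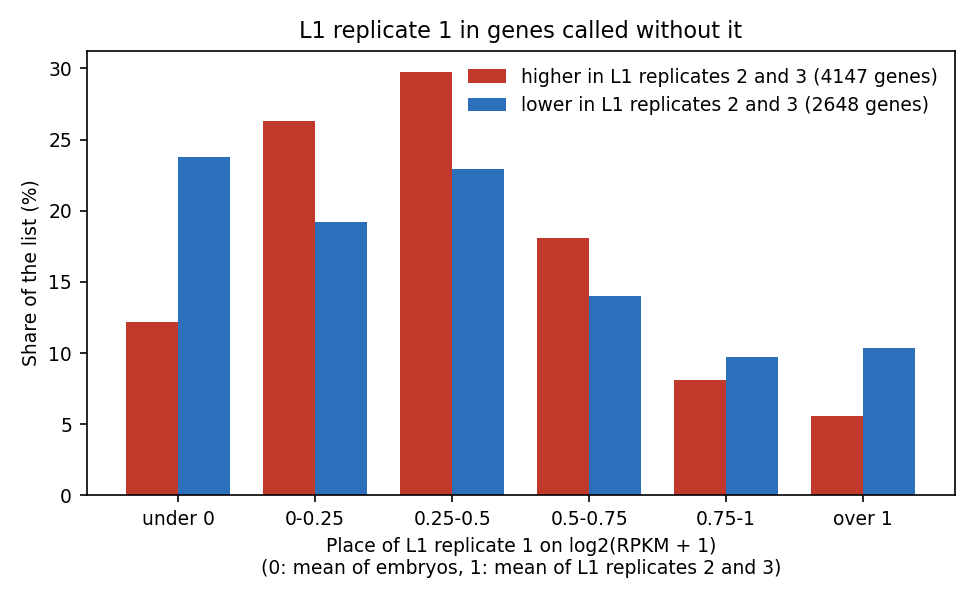
Share of the genes called higher (red, 4147 genes) or lower (blue, 2648 genes) in L1 replicates 2 and 3, by the place of L1 replicate 1 on the log2(RPKM + 1) scale, where 0 is the mean of the embryos and 1 the mean of the other larvae. Both lists are spread over all 6 intervals, with 68.2% of the higher and 65.9% of the lower genes at or below the midpoint of 0.5.

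L1 replicate 1 was furthest from the other larvae in a few abundant genes, given here as a description of 1 library against 2 with no test. Oti_g02086 was at 329.4 RPKM in replicate 1 and at 7.17 and 1.30 RPKM in replicates 2 and 3, with 600.41 to 1187.32 RPKM in the embryos. Oti_g00997, described above, had the next largest excess. In the other direction Oti_g13119 was at 0.35 RPKM in replicate 1 and at 265.67 and 84.41 RPKM in replicates 2 and 3, and at 0.10 to 0.28 RPKM in the embryos. Oti_g12273 was at 3.15, 209.03 and 381.28 RPKM in L1 replicates 1, 2 and 3 and at 0.03 to 0.32 RPKM in the embryos. In each of these 4 genes replicate 1 was nearer the embryos than either other larval library was.

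The genes higher in L1 stayed at larval levels in later larvae, which had no part in choosing them. Library medians of the 3168 genes were 0.19 to 0.55 RPKM in the 64-200 cell embryos and 3.12, 12.67 and 10.98 RPKM in L1 replicates 1, 2 and 3. They were 11.2 ± 1.02 RPKM in L2, 12.2 ± 2.90 in L3 and 10.1 ± 0.04 in L4, and 4.30 ± 2.56 in mature adults, 6.62 ± 0.32 in males and 8.10 ± 1.88 in dauer larvae (SD, n = 2 each). All genes tested had a median of 12.7 ± 0.68 RPKM in L2 and 7.19 ± 3.43 RPKM in mature adults (SD, n = 2 each). Between 96.9% and 97.8% of the higher genes lay on the larval side of the midpoint in the L2 libraries. In mixed embryos, a library of unsorted embryos, 28.2% did. These shares were not counted over all genes tested. Those genes rose too, from library medians of 4.12 to 7.96 RPKM in the 64-200 cell embryos. How far the shares are particular to the higher list was therefore not tested. Of the 3168, 172 (5.43%) had their highest stage mean in L1, against 1.87% of all genes tested, a difference that the choice of the list favours. Among the stages outside the comparison, 1336 (42.2%) were highest in L2 to L4, against 24.9% of all genes tested, and 1484 (46.8%) were highest in dauer or post-dauer worms, against 3454 of all 11513 genes tested. The median of the silent genes was 3.59 and 1.55 RPKM in the dauer libraries and 0.21 to 5.32 RPKM in the post-dauer libraries, highest in post-dauer young adult replicate 1, and the part of this level in the dauer and post-dauer peaks was not tested.

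The genes lower in L1 formed sets that ran different courses through the life cycle. The 1626 genes called with all larvae had medians of 18.8 ± 11.5 RPKM at 2-4 cells and 34.8 ± 6.17 at 8-16 cells. They were at 29.8 ± 4.67 at 16-32 cells and 39.3 ± 11.8 at 32-64 cells (SD, n = 3 each), and 34.3 to 51.3 RPKM over the 64-200 cell libraries. All genes tested rose too, with medians of 2.04 ± 1.22 RPKM at 2-4 cells, 3.94 ± 0.71 at 8-16 cells and 5.30 ± 2.21 at 32-64 cells (SD, n = 3 each). The rise through cleavage is therefore not particular to this list. In L1 replicates 1, 2 and 3 the 1626 genes were at 19.1, 9.27 and 11.2 RPKM. They stayed below their 64-200 cell levels afterwards, at 14.9 ± 0.53 RPKM in L2 and 7.34 ± 2.95 RPKM in mature adults (SD, n = 2 each). These levels were not low beside all genes tested, with medians of 12.7 RPKM in L2 and 7.19 RPKM in mature adults. Of the 1626 genes, 1050 kept a mean of at least 10 RPKM in L1, and 38 were under 1 RPKM in every L1 library. Among stages outside the comparison, 1353 of them (83.2%) were highest in embryos of 2 to 64 cells, against 34.0% of all genes tested. The 32-64 cell replicate 3 was itself nearly alike the 64-200 cell libraries of its number, with 156 of 11513 genes differing by 1 or more from the 64-128 cell library.

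The choice of genes called only without L1 replicate 1 favours embryo-like levels in that library, so its values in them are no finding. The 1099 such genes called lower ran the opposite course through cleavage. Their library medians were 65.5 RPKM in the 2-cell library, 48.4 ± 11.3 RPKM at 2-4 cells, 43.1 ± 6.64 at 8-16 cells and 25.5 ± 2.95 at 16-32 cells (SD, n = 3 each), and 15.0 to 31.0 RPKM at 64-200 cells. They were at 27.3 RPKM in L1 replicate 1 and at 4.02 and 6.34 RPKM in L1 replicates 2 and 3. They were at 6.30 ± 0.38 RPKM in L2, 14.7 ± 0.54 in L4 and 36.7 ± 4.82 in mature adults (SD, n = 2 each). These genes were thus high in mature adults and in the earliest embryos and low in early larvae. In post-dauer mature adults they were at 17.0 ± 1.59 RPKM, and in post-dauer young adults at 15.5 ± 9.31 (SD, n = 2 each). All genes tested had medians of 7.19 ± 3.43 RPKM in mature adults. Their medians were 11.8 ± 0.06 in post-dauer mature adults and 11.5 ± 2.79 in post-dauer young adults (SD, n = 2 each). Of the 1099, 870 (79.2%) had their highest stage mean at 2 to 64 cells, against 24.8% of all genes tested. The 1085 genes called higher only without L1 replicate 1 had a median of 1.91 RPKM in that library, 1.02 to 2.19 RPKM in the embryos and 9.05 ± 0.94 RPKM in L2 (SD, n = 2).

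**Figure D4:**
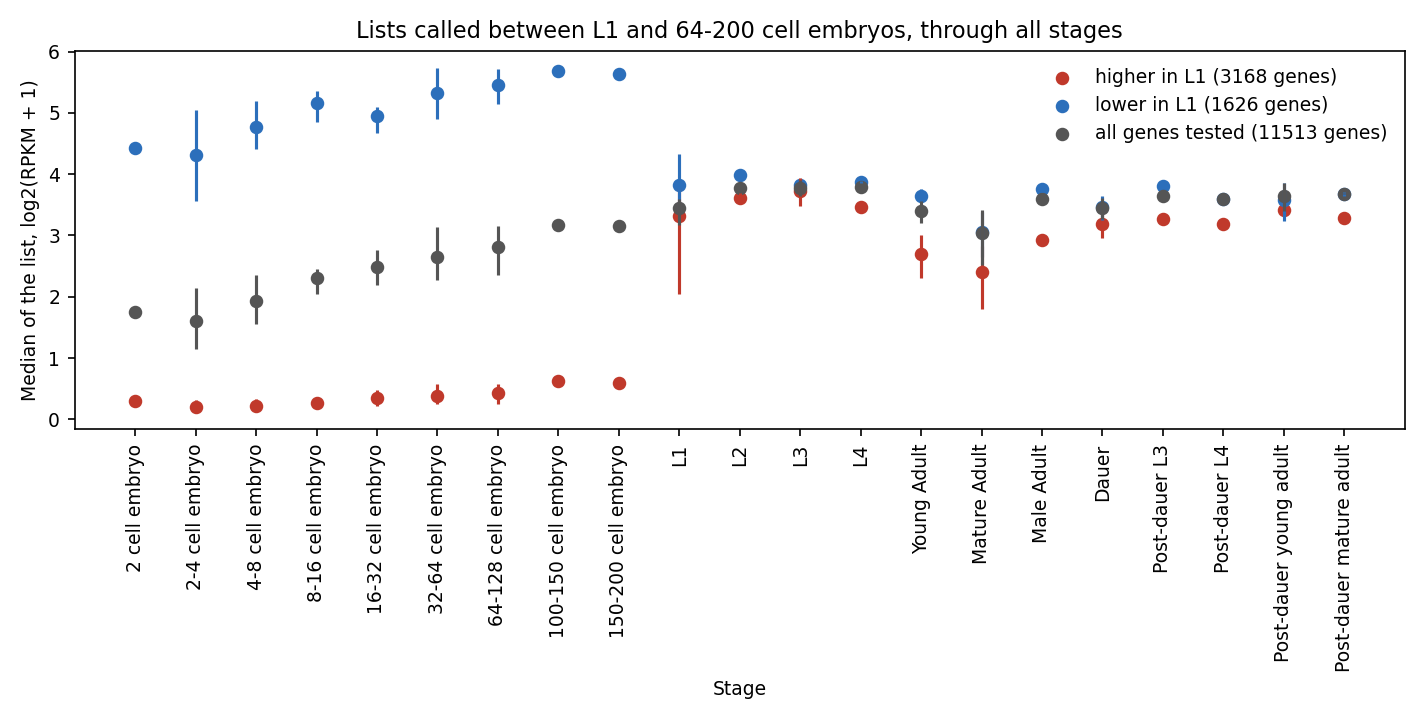
Median level of the 3168 genes higher in L1 (red), the 1626 lower in L1 (blue) and all 11513 genes tested (grey) at each stage, as log2(RPKM + 1). Points are the mean of the library medians and lines run from the lowest to the highest library. The red list is under 1 RPKM in every embryo stage given by cell number and near 10 RPKM in L2 to L4. The blue list climbs through cleavage. From L1 on the blue list stays below its level in the embryos compared with L1, but is not low beside all genes tested.

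Within the embryo window both lists had a median change close to 0. From the 64-128 to the 150-200 cell library of number 3, the 3168 higher genes changed by a median of 0.01 on the log2 scale, 1637 upward and 1402 downward, and 3 rose by 1 or more. The 1626 lower genes changed by a median of -0.06, and none fell by 1 or more. Over all genes tested the median was 0, with 10 genes up and 10 down by at least 1. From the 150-200 cell library to L1 replicate 1 the medians were 1.10 in the higher and -1.27 in the lower list. That larva and these embryo libraries all helped to choose both lists. The choice favours genes that vary little among the embryos, so the small changes within the embryo window are no finding. The higher list also had medians of 0.50 and 0.51 RPKM in the 64-128 and 150-200 cell libraries of number 3. At such levels log2(RPKM + 1) moves little. Each of these steps sets 1 library against another and has no replicate check.

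More genes were detected in each L1 library than in any embryo library, though depth is unknown. The silent genes also had a higher median in L1, at 0.15 to 0.47 RPKM against 0 to 0.10 RPKM in the embryos. The part of this level in the counts was not tested. L1 libraries held 10111, 11167 and 10610 genes at 1 RPKM or more, and the embryos 7461, 8624, 8643 and 8633. The groups did not overlap, and the means differed by 2289 genes (exact permutation test over 35 splits, two-sided p = 0.0571, the smallest this design allows; Benjamini-Hochberg adjusted p = 0.114 over 2 tests). The 100 most abundant genes took 42.2 ± 5.83% of the summed RPKM in L1 (SD, n = 3) and 39.2 ± 1.21% in embryos (SD, n = 4), and these shares overlapped (exact permutation test, two-sided p = 0.400; Benjamini-Hochberg adjusted p = 0.400).

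**Figure D5:**
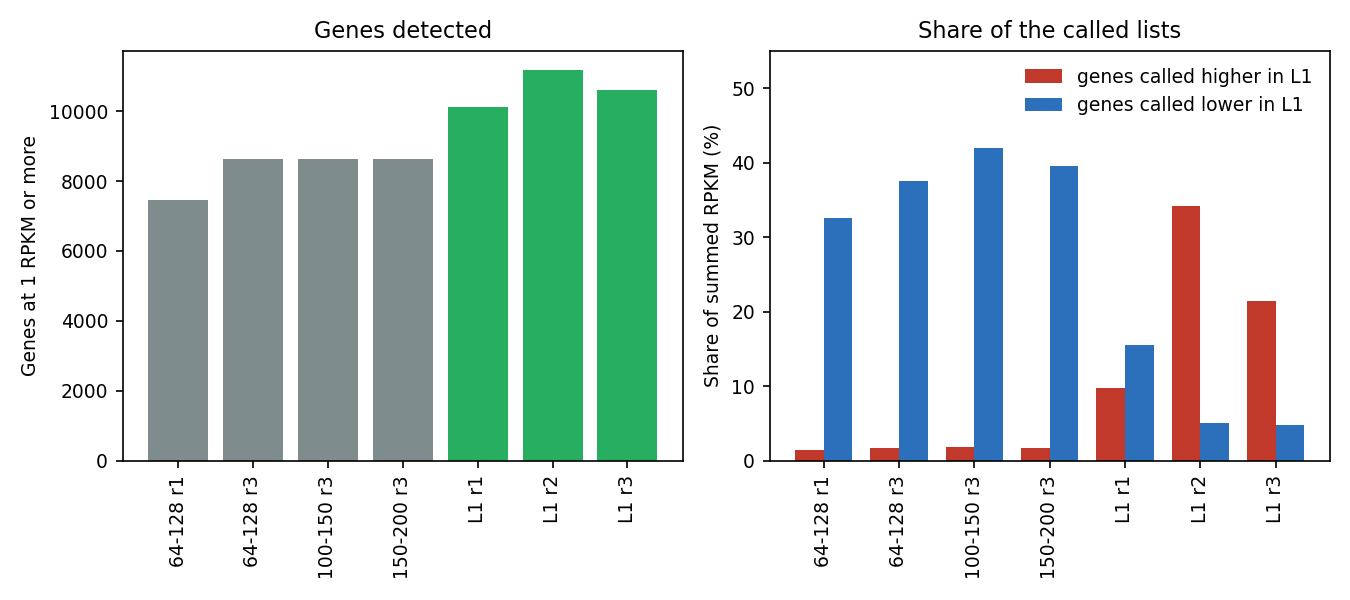
Number of genes at 1 RPKM or more (left) and share of the summed RPKM in genes called higher (red) or lower (blue) in L1 with all larvae (right), for each library; grey bars are embryos and green bars L1. L1 replicate 1 detects more genes than any embryo, while its 9.77% of higher genes and 15.5% of lower genes lie between the embryos and the other larvae.

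The called lists shifted the make-up of the pool. The 3168 higher genes made up 1.37% to 1.86% of the summed RPKM in the embryos and 9.77%, 34.1% and 21.4% in L1 replicates 1, 2 and 3. The 1626 lower genes made up 32.6% to 41.9% in the embryos and 15.5%, 5.08% and 4.77% in L1. As these libraries chose the lists, the shares only show their weight. Among the most abundant genes the groups were partly alike: 67 genes were in the top 100 by mean of both groups with all larvae. Of the top 100 of the embryos, 32 were called lower in L1 and 1 higher, and of the top 100 of L1, 16 were called higher and 2 lower. Genes reaching a mean of 100 RPKM on either side numbered 1099, of which 210 were higher and 341 lower. Among abundant genes decreases thus outnumbered increases here, as they did after quantile normalization with 229 higher and 284 lower. This order takes the embryo libraries of number 3 as separate. With these averaged into 1 value, 116 genes of any level were lower against 763 higher, and abundant genes were not counted apart.

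For most genes that were not called, the data do not show that levels were alike. Of 6719 such genes, the 95% interval of the log2 change stayed within 1 either way in 484, which is 4.20% of the genes tested, and reached past it in 6235. With L1 replicate 1 left out, the interval stayed within 1 in 748 of 4512. The median SD of log2(RPKM + 1) over the genes tested was 0.74 among the 3 L1 libraries, 0.35 between L1 replicates 2 and 3, 0.33 among the 4 embryo libraries and 0.15 among the 3 of number 3.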

How the data were processed

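Ribosomal RNA was depleted and total RNA libraries were made, per the labels' protocols. Values are RPKM as the authors deposited them in a single table; its header names no unit, and RPKM was inferred because values are fractional and sum to 375521 to 619848 in the 7 libraries. The submitters' processing notes name, without roles, HTSeq 2.0.2, StringTie 2.2.0, STAR 2.7.10 and Bowtie2 2.4.2. The genome build is not given in the sources used here.

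Replicate numbers of embryos follow the library descriptions, not the titles. The 7 libraries were compared on log2(RPKM + 1) in R 4.3.3 with limma 3.58.1 (mean-variance trend, robust empirical Bayes, Benjamini-Hochberg adjustment), for genes of at least 1 RPKM in at least 2 of them. The pseudocount understates changes of low genes. Permutation tests used SciPy 1.17.1. Code was tested on simulated data. At most 0.438% of the values above 1 RPKM were equal in any pair of these libraries. Named genes are the 2 called genes of largest log2 change in each direction whose groups do not overlap and whose higher mean is at least 10 RPKM; for L1 replicate 1 against the other larvae, the 2 largest differences each way among genes at 10 RPKM or more. The members and lists were chosen with earlier results of these data known.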

Additional observations from a re-analysis of the deposited data

Results flagged for a closer look

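On the embryo side, 6 of 17 quantities had 1 library far from the other 3. The test used trips in about 1 of 20 groups of independent, normally spread values. That rate does not hold here, as 3 of the 4 libraries carry replicate number 3 and were nearly alike. Nor does it hold for genes at or near 0 RPKM. The flags therefore only point out values. The 64-128 cell replicate 1 accounted for 4 of them: its values summed to 375521 RPKM, it held 7461 genes at 1 RPKM or more and 3323 genes at 0, and its median was 1.105 RPKM. These 4 quantities are linked and are no independent signs. The other 2 were Oti_g13622, at 0.70 RPKM in the 150-200 cell library with 0 elsewhere, and Oti_g00534, at 0.43 RPKM in the 100-150 cell library, both far below their levels in L1. Without 64-128 cell replicate 1, limma called 2362 genes higher and 1835 lower with all larvae.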

How the results depend on the processing

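The total of 4794 genes called was 1007 with 64-128 cell embryos only and 879 with the 3 embryo libraries of replicate number 3 as 1 value, the latter chosen after seeing the data, as was the subtraction of silent genes. Leaving out each library gave 2932 to 6795 genes with all larvae. Without L1 replicate 1, leaving out each embryo library gave 6345 to 7201 in place of 6795. Fewer larvae also left fewer genes to test. The 3656 and 4370 genes called with only L1 replicate 3 or 2 take their spread from the embryos alone, assuming that the larva varies like them, and there the majority turned, to 1677 higher and 1979 lower and to 1822 higher and 2548 lower. The share of higher calls moved from 66.1% to 46.9% after quantile normalization. The excess of L1 in the share of the most abundant genes, 3.06 percentage points, turned to -0.68 with the 10 most abundant genes. The share of higher genes with L1 replicate 1 on the larval side was 43.7% at a pseudocount of 0.1 and 28.7% after quantile normalization. A replicate block gave 4435 genes with all larvae and 7079 without replicate 1. The labels do not say that the numbers pair larvae with embryos, and deviations of same-numbered libraries correlated at -0.09 for number 1 and -0.06 to 0.11 for number 3. The 7 genes named from the limma comparisons kept their direction and call in all alternatives that could be fitted; Oti_g02086, Oti_g13119 and Oti_g12273 were run under none. Depth is unknown and 3 against 4 libraries limit the precision.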
